A study of Mus musculus with 4 samples.

Results

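The Krüppel-like factors (KLF) described here are 10 of the 27597 genes listed in the deposited tables of an RNA-seq study of mouse embryonic fibroblasts. They were chosen by gene symbol: Klf4, which was delivered to the cells, and Klf2, Klf3, Klf5, Klf6, Klf7, Klf9, Klf10, Klf13 and Klf16, which were not. Per the labels, the fibroblasts came from the skin of embryos of strain OGXICR at age D13.5, freed of epidermis after collagenase, and were grown in medium with fetal bovine serum. All 4 groups were infected with a doxycycline-inducible lentiviral system. The empty vector group (EV) carried no factor, SKM carried SOX2, KLF4 and c-MYC, OSKM added OCT4 to these, and G3SKM added GATA3 to them. Each group is 1 sample that combined 2 replicates into 1 value per gene, so no difference below can be set against a spread between replicates, and no test was possible. Neither the time after infection nor the doxycycline dose is given in the sources used here.

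KLF proteins are transcription factors that bind CACCC and GC-rich DNA through zinc fingers at their carboxyl end. KLF4 is a reprogramming factor and, in the skin, a regulator of the epidermal barrier, and in mouse embryonic stem cells Klf2, Klf4 and Klf5 act together to sustain self-renewal. Other members are best known as genes that growth factors, serum, TGF-beta or hormones switch on, or as repressors that recruit the corepressors SIN3A or CtBP.

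The zinc-finger stretch is shown for the members that come closest to Klf4 in sequence, in stem cell function or in direction of change. It spans 3 fingers and 243 bases and was read from GENCODE M21 transcripts (GRCm38). In the Klf4 line (bases 1799 to 2041 of its transcript, gene on chromosome 4), capitals mark the 12 codons of the zinc-binding cysteines and histidines. In the other lines, capitals mark the bases that differ from Klf4.
Klf4: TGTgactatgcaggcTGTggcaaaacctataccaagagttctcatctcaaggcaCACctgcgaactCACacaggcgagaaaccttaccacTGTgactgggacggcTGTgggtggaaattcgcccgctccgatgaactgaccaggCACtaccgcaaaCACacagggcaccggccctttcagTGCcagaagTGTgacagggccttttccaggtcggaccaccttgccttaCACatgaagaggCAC
Klf2: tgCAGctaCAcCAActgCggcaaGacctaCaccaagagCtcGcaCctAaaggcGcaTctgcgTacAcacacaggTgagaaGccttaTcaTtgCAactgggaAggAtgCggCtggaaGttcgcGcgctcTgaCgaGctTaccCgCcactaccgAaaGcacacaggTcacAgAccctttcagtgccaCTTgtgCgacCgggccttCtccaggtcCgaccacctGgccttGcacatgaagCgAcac
Klf5: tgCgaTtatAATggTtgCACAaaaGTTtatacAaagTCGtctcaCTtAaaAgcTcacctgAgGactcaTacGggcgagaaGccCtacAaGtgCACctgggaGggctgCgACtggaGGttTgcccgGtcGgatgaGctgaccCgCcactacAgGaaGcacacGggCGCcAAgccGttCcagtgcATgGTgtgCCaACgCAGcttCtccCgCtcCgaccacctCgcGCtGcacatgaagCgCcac
Klf16: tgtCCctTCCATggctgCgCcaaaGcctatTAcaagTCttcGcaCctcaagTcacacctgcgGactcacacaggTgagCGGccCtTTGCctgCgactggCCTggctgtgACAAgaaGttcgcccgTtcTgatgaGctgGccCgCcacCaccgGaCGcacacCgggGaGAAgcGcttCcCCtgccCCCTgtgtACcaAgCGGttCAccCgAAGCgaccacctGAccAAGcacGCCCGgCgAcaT
Klf2 shared 78.2% of these bases with Klf4, Klf3 70.0%, Klf7 69.5%, Klf6 68.7%, Klf5 68.3%, Klf16 65.0%, Klf10 64.6%, Klf13 61.3% and Klf9 57.2%. The longest run of identical bases between the Klf4 transcript and that of another member was 16 bases, with Klf7, and between any pair of members it was 26 bases, for Klf6 and Klf7.

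Values are RPKM, the reads per kilobase scaled to library depth, and the deposited values take the whole gene with its introns as the length. Reads recovered from them were whole numbers in all 4 groups for all 10 members, within 0.0009 of a read. Folds are ratios of RPKM, and bounds in brackets (95%, Clopper-Pearson) come from the recovered reads and cover counting error only. Calls follow a rule of size. To be called, a gene needs a log2 ratio of 1 or more in either direction, with 1 RPKM added to both values, and must reach 1 RPKM in either group of the comparison. Klf5 and Klf7 stayed under 1 RPKM in every group, so 8 of the 10 members could be called. In a culture, fewer cells of a type and less RNA per cell cannot be told apart.

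The recovered depth was 54.0 M to 111 M (mega-reads) per group, with SKM the lowest and EV the highest. Of 7 fibroblast markers, 5 reached 1 RPKM in EV, 4 in SKM, 6 in OSKM and 4 in G3SKM, with sums of 516, 464, 215 and 240 RPKM. Col1a1 made up most of these sums, at 332, 352, 143 and 166 RPKM. The markers did not all move together. With values rescaled to exon length, Dcn and Lum were called higher in OSKM than in EV and the other 5 lower, beside 8.89% and 4.91% of all genes. Of 6 endothelial markers none reached 1 RPKM in any group (sums of 0.0358 to 0.171 RPKM, Cdh5 at 0 in SKM). The 8 macrophage markers summed to 31.8 RPKM in EV and to 1.92 to 4.29 RPKM in the other groups, with Ptprc at 0 in SKM and Adgre1 at 0 in OSKM. The 9 keratinocyte markers summed to 7.85 RPKM in EV, 102 in SKM, 56.9 in OSKM and 70.2 in G3SKM. Trp63 was at 0 in EV, SKM and G3SKM and Dsg3 in EV. The 7 epithelial markers summed to 1.41, 35.6, 13.8 and 18.0 RPKM in the same order, with Cdh1 at 0 in EV. The 6 pluripotent markers summed to 0.0340, 0.110, 1.51 and 0.202 RPKM. Esrrb was at 0 in all groups but OSKM, Zfp42 in EV and SKM, Fgf4 in EV, and Dppa5a and Tdgf1 in SKM. The part of these shifts in the KLF values was not tested.

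The ratios of the SKM library followed transcript GC. Across genes, Spearman's rho between log2 ratio and GC was 0.496 (SKM against EV), -0.708 (OSKM against SKM) and -0.715 (G3SKM against SKM), and between -0.00167 and 0.0595 for the comparisons without SKM. Genes are not independent replicates in these values. Removal of the trend changes several calls of the members and of the gene lists.

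Klf4, the delivered member, was at 6.26 RPKM (3711 reads) in EV, 19.3 (5562 reads) in SKM, 13.9 (5544 reads) in OSKM and 8.55 (4631 reads) in G3SKM. The cells without delivered factor thus already had Klf4 reads, and the groups that received it ranked SKM, OSKM, G3SKM. Delivered and endogenous transcripts are not separated in a value per gene and cannot be told apart here.

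Against EV, Klf4 was 3.08-fold higher in SKM (2.96 to 3.21), 2.22-fold higher in OSKM (2.13 to 2.32) and 1.37-fold higher in G3SKM (1.31 to 1.43). SKM and OSKM passed the rule (log2 of 1.48 and 1.04), and G3SKM did not (0.40). With the GC trend removed, SKM still passed at 1.07 and OSKM was under the rule at 0.81. Within the groups that received the factor, Klf4 in G3SKM was 2.26-fold lower than in SKM (2.17 to 2.35; log2 -1.09, called lower), and -0.85 with the GC trend removed, which is under the rule. OSKM was 1.39-fold below SKM (1.34 to 1.44; log2 -0.45) and 1.63-fold above G3SKM (1.56 to 1.69; log2 0.64), both under the rule.

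**Figure D1:**
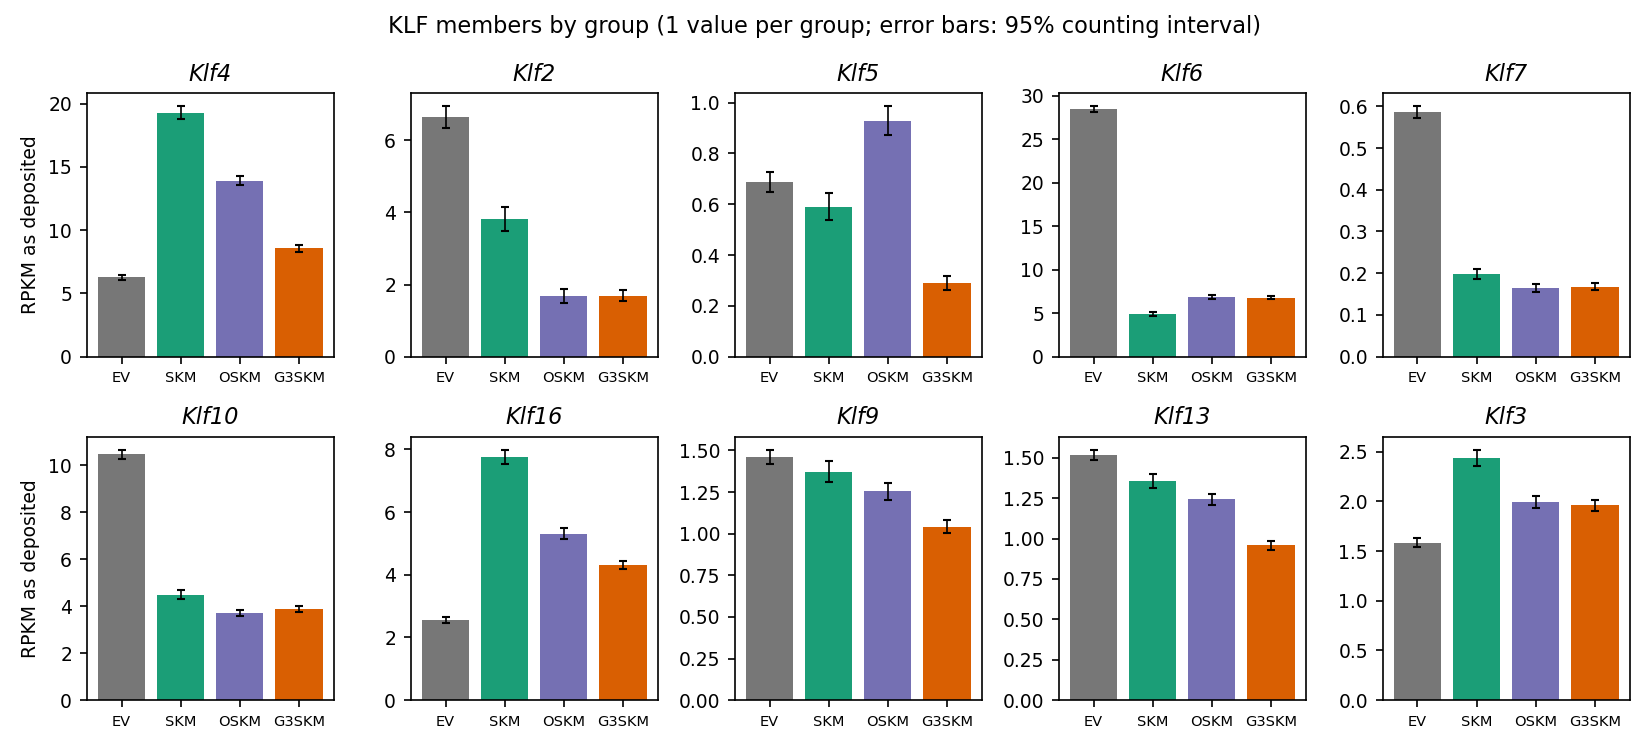
Deposited RPKM of the 10 KLF members in the EV, SKM, OSKM and G3SKM groups, 1 panel per gene, each with its own vertical axis in RPKM; error bars are 95% counting intervals and cover counting error only. Klf4, Klf16 and Klf3 are highest in SKM, Klf5 in OSKM, and the other 6 in EV.

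Klf2 and Klf5 are the members that act with Klf4 in mouse embryonic stem cells, and Klf2 is also known for flow-induced expression in endothelium and for quiescence of T cells. Klf2 was at 6.64 RPKM (1937 reads) in EV, 3.80 (539 reads) in SKM, 1.67 (328 reads) in OSKM and 1.69 (450 reads) in G3SKM. It was thus highest without delivered factors, intermediate in SKM and lowest in the other 2 groups. Klf2 was called lower than EV in OSKM, 3.97-fold (3.53 to 4.48; log2 -1.52), and in G3SKM, 3.93-fold (3.55 to 4.37; log2 -1.51). In SKM it was 1.75-fold below EV (1.59 to 1.93), with a log2 of -0.67 that did not pass the rule but came to -1.02, past it, with the GC trend removed. OSKM and G3SKM gave a ratio of 0.990 with bounds of 0.856 to 1.14, so a difference was not detectable in counting.

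Klf5, which promotes proliferation in many epithelia, stayed below 1 RPKM: 0.686 in EV (1122 reads), 0.588 in SKM (468 reads), 0.927 in OSKM (1020 reads) and 0.289 in G3SKM (432 reads). It had its highest value in OSKM and its lowest in G3SKM. OSKM was 3.21-fold above G3SKM (2.86 to 3.60) and 1.35-fold above EV (1.24 to 1.47), and G3SKM was 2.37-fold below EV (2.12 to 2.66). None of these could be called on the deposited scale, and on the exon-length scale the OSKM to G3SKM log2 of 0.995 was just under the rule. The sign of OSKM against EV turned with the GC trend removed (log2 of 0.19 against -0.02). The length that gives whole reads for Klf5 is 14714 bases, and the reads are even numbers in all groups, so a length and reads smaller by a factor of 2 would serve as well, with wider bounds.

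Klf6, an early response gene that activates TGF-beta pathway genes, was at 28.5 RPKM (28165 reads) in EV, 4.91 (2362 reads) in SKM, 6.83 (4548 reads) in OSKM and 6.76 (6116 reads) in G3SKM. EV stood far above the groups that received factors, which lay close to each other. Against EV, Klf6 was 5.80-fold lower in SKM (5.56 to 6.05; log2 -2.32), 4.16-fold lower in OSKM (4.04 to 4.30; log2 -1.91) and 4.21-fold lower in G3SKM (4.09 to 4.33; log2 -1.92). In SKM this was the largest fold of any member, and in OSKM and G3SKM its bounds overlapped those of Klf2. Klf6 was 1.39-fold above SKM in OSKM (1.32 to 1.46) and 1.38-fold above it in G3SKM (1.31 to 1.45), but the sign turned when values were rescaled to exon length with the GC trend removed (log2 of -0.06 and -0.04).

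Klf10, known as TGF-beta-inducible early gene and a SIN3A-binding repressor, was at 10.5 RPKM (10767 reads) in EV, 4.49 (2245 reads) in SKM, 3.71 (2565 reads) in OSKM and 3.88 (3644 reads) in G3SKM. Its profile resembled that of Klf6, with EV above all other groups. Klf10 was 2.33-fold lower in SKM (2.23 to 2.44; log2 -1.06), 2.82-fold lower in OSKM (2.70 to 2.95; log2 -1.28) and 2.70-fold lower in G3SKM (2.60 to 2.80; log2 -1.23). The SKM call was lost with the GC trend removed (log2 -0.93).

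Klf7, the nearest relative of Klf6 and best known from sensory neurons, was at 0.586 RPKM (6043 reads) in EV, 0.1975 (991 reads) in SKM, 0.165 (1142 reads) in OSKM and 0.167 (1574 reads) in G3SKM. Its gene is long, so its deposited RPKM was low although its reads in EV exceeded those of Klf4. On the ratio of RPKM it lay 2.97-fold below EV in SKM (2.77 to 3.17), 3.56-fold below it in OSKM (3.34 to 3.79) and 3.51-fold below it in G3SKM (3.32 to 3.71). It could not be called on the deposited scale, and on the exon-length scale it was called lower against EV in all 3 (log2 of -1.24, -1.42 and -1.40). The gene overlaps Gm26649 and Gm13748 on the opposite strand and Mir6899 on its own, and whether strand was used in counting is not given in the sources used here.

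The promoters of Klf2, Klf6 and Klf7 are shown because these members lay furthest below EV in OSKM and G3SKM and RefSeq (GRCm38.p6) held them. Each is the 250 bases before the gene's start, and 7 of the 10 members matched the table. Capitals mark matches on either strand to CACCC and GGGCGG (KLF and SP motifs), CACGTG (an E-box), TGACG (a CRE core) and TATAAA. The CArG box of serum response factor was also searched, and matches may overlap.
Klf2, chr8:72318812-72319061, plus strand: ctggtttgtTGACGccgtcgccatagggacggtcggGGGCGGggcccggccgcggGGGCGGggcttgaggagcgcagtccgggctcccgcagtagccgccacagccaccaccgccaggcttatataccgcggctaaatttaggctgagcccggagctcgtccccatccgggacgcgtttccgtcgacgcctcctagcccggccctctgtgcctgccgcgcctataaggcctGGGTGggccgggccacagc
Klf6, chr13:5861239-5861488, plus strand: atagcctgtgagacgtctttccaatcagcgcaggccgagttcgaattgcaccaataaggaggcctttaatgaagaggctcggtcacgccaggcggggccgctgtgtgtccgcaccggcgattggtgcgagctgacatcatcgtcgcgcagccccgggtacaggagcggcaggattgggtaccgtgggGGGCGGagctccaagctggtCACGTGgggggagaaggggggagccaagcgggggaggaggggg
Klf7, chr1:64121390-64121639, minus strand: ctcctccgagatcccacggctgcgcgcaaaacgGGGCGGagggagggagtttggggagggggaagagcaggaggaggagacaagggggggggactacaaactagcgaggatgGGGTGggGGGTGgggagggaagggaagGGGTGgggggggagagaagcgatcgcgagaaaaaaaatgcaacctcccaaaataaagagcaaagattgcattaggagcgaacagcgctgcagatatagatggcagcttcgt
Of all 32841 promoters of this length, 52.0% held CACCC, 32.7% GGGCGG, 6.02% CACGTG, 17.8% TGACG, 12.4% TATAAA and 1.47% a CArG box. The Klf2 window held 1 CACCC, 2 GGGCGG and 1 TGACG, the Klf6 window 1 GGGCGG and 1 CACGTG, and the Klf7 window 3 CACCC and 1 GGGCGG. No match to the CArG box was found in the 7 matched windows, which says only that these letters are not there.

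Klf16, a SIN3A-binding repressor, was at 2.57 RPKM (2903 reads) in EV, 7.76 (4262 reads) in SKM, 5.31 (4037 reads) in OSKM and 4.30 (4441 reads) in G3SKM. It was not delivered, and on the deposited scale its groups ranked as those of Klf4 did, with SKM highest and EV lowest. SKM above OSKM (log2 of OSKM against SKM -0.47) did not hold on exon length with the GC trend removed (0.01). Klf16 was 3.02-fold higher in SKM than in EV (2.88 to 3.17; log2 1.29, called higher). Its 2.07-fold in OSKM (1.97 to 2.17; log2 0.82) and 1.67-fold in G3SKM (1.60 to 1.76; log2 0.57) were under the rule. Over its exons Klf16 has a GC content of 60.4%, next to 61.6% for Klf2, the highest of the members, and the SKM call was lost with the GC trend removed (log2 0.95).

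Klf9, a glucocorticoid- and thyroid hormone-induced repressor, and Klf13, a regulator of T-cell chemokine expression, are the other SIN3A-binding members here. Klf9 was at 1.46 RPKM (4170 reads) in EV, 1.37 (1904 reads) in SKM, 1.25 (2409 reads) in OSKM and 1.04 (2720 reads) in G3SKM. Klf13 was at 1.52 RPKM (8876 reads), 1.36 (3853 reads), 1.24 (4881 reads) and 0.958 (5111 reads) in the same order. Neither passed the rule in any comparison, and the lowest value of both was in G3SKM, 1.40-fold below EV for Klf9 (1.33 to 1.47) and 1.59-fold below it for Klf13 (1.53 to 1.64). Klf13 overlaps E030018B13Rik and Gm27252 on the opposite strand, and Klf9 overlaps Mir1192.

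Klf3, which represses through CtBP, was at 1.59 RPKM (4715 reads) in EV, 2.44 (3527 reads) in SKM, 1.99 (3985 reads) in OSKM and 1.96 (5321 reads) in G3SKM. It passed the rule in no comparison. Against EV its ratio was 1.54 in SKM (1.47 to 1.61), 1.26 in OSKM (1.20 to 1.31) and 1.24 in G3SKM (1.19 to 1.28). Klf3 overlaps Gm20033 on the opposite strand and C230096K16Rik on its own.

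**Figure D2:**
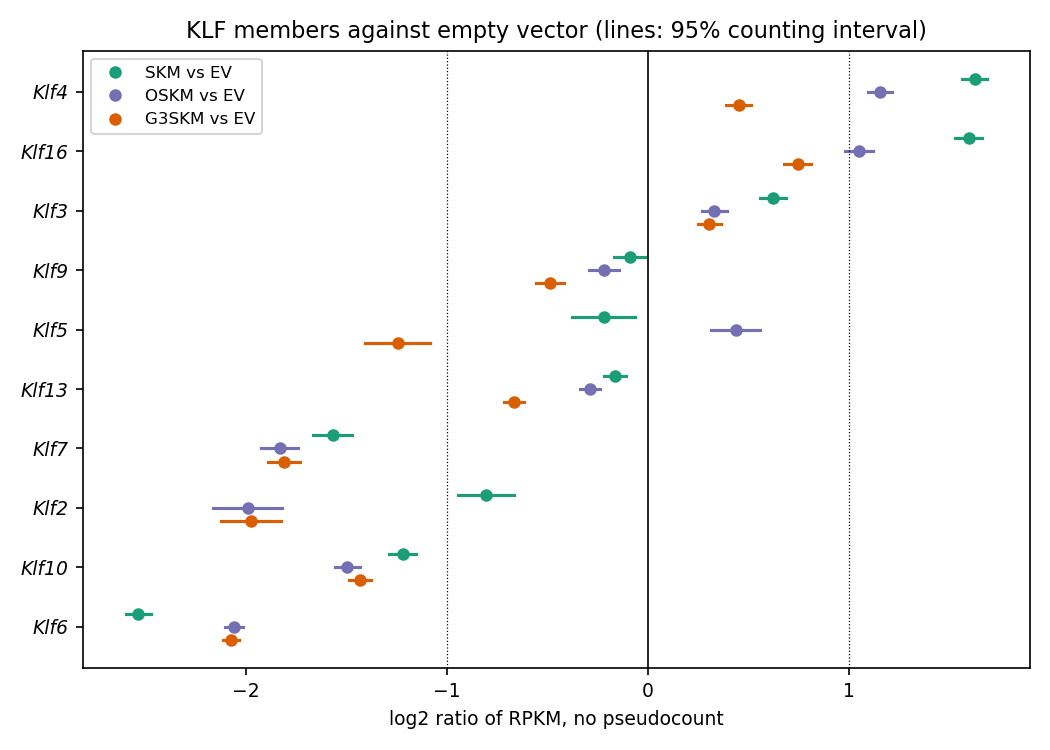
Fold of each of the 10 members against EV in SKM, OSKM and G3SKM on a log2 axis; bars are 95% counting intervals, the solid line marks no change and the dotted lines mark 2-fold. Klf2, Klf6, Klf7, Klf9, Klf10 and Klf13 lie below no change in all 3 groups, and Klf4, Klf16 and Klf3 lie above it.

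SKM against EV compares cells with the 3 common factors to cells with none. Klf4 and Klf16 were higher and Klf6 and Klf10 lower among the 8 members that could be called. Of all 10195 genes past the filter, 8.88% were called higher and 5.98% lower. The median log2 ratio of the members past the filter was -0.07 against 0.15 for all genes, a shift of all genes that comes to 0.18 in OSKM and 0.17 in G3SKM against EV.

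OSKM against SKM asks what OCT4 adds, and no member was called in either direction, where 2.55% of all genes were called higher and 1.64% lower. The members' largest differences were those of Klf2 (log2 -0.85), Klf16 (-0.47) and Klf4 (-0.45). The sign of Klf16, like that of Klf6 and Klf13, did not hold under every alternative. G3SKM against SKM compares cells with and without added GATA3. Klf4 alone was called, lower, with background shares of 4.43% higher and 1.1% lower. Klf2 (log2 -0.84) and Klf16 (-0.72) came next. These comparisons share the SKM library and its GC trend. The values of the common factors differed as well: Klf4 was at 0.721 of its SKM value in OSKM and 0.443 in G3SKM. Sox2 was at 0.592 and 0.379. The added factor, the level of the common factors and the GC trend cannot be told apart here.

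OSKM against EV had Klf4 higher and Klf2, Klf6 and Klf10 lower, with 4.79% of all genes called higher and 4.14% lower. G3SKM against EV had no member higher and the same 3 lower, with 7.06% and 3.74% of all genes. OSKM against G3SKM had no member called, with 0.724% of all genes higher and 2.22% lower. On the exon-length scale all 10 members could be called, and Klf7 joined the lower members in each comparison with EV. The members were then 2 higher and 3 lower in SKM (11.9% and 7.14% of all genes), 1 and 4 in OSKM (8.89% and 4.91%) and 0 and 4 in G3SKM (10.2% and 4.86%). With the GC trend removed, 8 members could be called: 1 higher (Klf4) and 2 lower (Klf2 and Klf6) in SKM (4.28% and 5.89% of all genes), 0 and 3 in OSKM (2.72% and 6%), and 0 and 3 in G3SKM (4.2% and 5.49%), against EV. None was then called in G3SKM against SKM (2.09% and 0.687%).

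Levels between genes were compared on RPKM rescaled to exon length. In EV, Klf6 led at 57.7, followed by Klf10 at 23.2, Klf4 at 10.95, Klf13 at 10.6, Klf16 at 9.77, Klf2 at 9.44, Klf9 at 7.79, Klf7 at 6.69, Klf3 at 3.77 and Klf5 at 1.94. Counting intervals of Klf4 and Klf13, and of Klf16 and Klf2, overlapped in EV. In SKM the order began with Klf4 at 33.8 and Klf16 at 29.5, ahead of Klf6 at 9.95, Klf10 at 9.94 and Klf13 at 9.47, and the intervals of Klf6 and Klf10 and of Klf10 and Klf13 overlapped. Klf9 followed at 7.32, Klf3 at 5.80, Klf2 at 5.40, Klf7 at 2.25 and Klf5 at 1.66, and only Klf3 and Klf2 overlapped among these. In these values the members that led without factors had been replaced at the top by Klf4 and Klf16. The GC trend was not removed from the values of this order. With it removed, the Klf16 call in SKM against EV was lost (log2 0.95, and 0.80 on exon length as well).

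In OSKM, Klf4 at 24.3 and Klf16 at 20.2 again led, followed by Klf6 at 13.9, Klf13 at 8.67, Klf10 at 8.21, Klf9 at 6.69, Klf3 at 4.74, Klf5 at 2.62, Klf2 at 2.38 and Klf7 at 1.88. Klf13 and Klf10, and Klf5 and Klf2, overlapped. In G3SKM, Klf16 at 16.4 stood above Klf4 at 15.0 and Klf6 at 13.7, and no neighbours overlapped. The rest were Klf10 at 8.59, Klf13 at 6.68, Klf9 at 5.56, Klf3 at 4.66, Klf2 at 2.40, Klf7 at 1.91 and Klf5 at 0.818. G3SKM was the group in which the delivered member did not lead although its factor was present. These levels divide by annotated exon bases (3049 for Klf4 and 2674 for Klf16), and the counting intervals do not cover that choice of length.

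Summed over the 17 KLF genes on this scale, without removal of the GC trend, the family was largest in EV at 146, against 125 (SKM), 106 (OSKM) and 86.4 (G3SKM). Klf4 made up 7.51% of the sum in EV, 27.0% in SKM, 22.9% in OSKM and 17.3% in G3SKM. Klf6 made up 39.6%, 7.95%, 13.1% and 15.9%, and Klf16 6.70%, 23.6%, 19.1% and 18.9%, in the same order. Without Klf4 the sum was 135 in EV, 91.4 in SKM, 81.7 in OSKM and 71.4 in G3SKM. Klf2, Klf6, Klf7 and Klf10, chosen because they lay furthest below EV in the SKM library, together gave 97.0, 27.5, 26.3 and 26.6, and Klf2, Klf4 and Klf5, the members of stem cell self-renewal, gave 22.3, 40.8, 29.3 and 18.2.

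**Figure D3:**
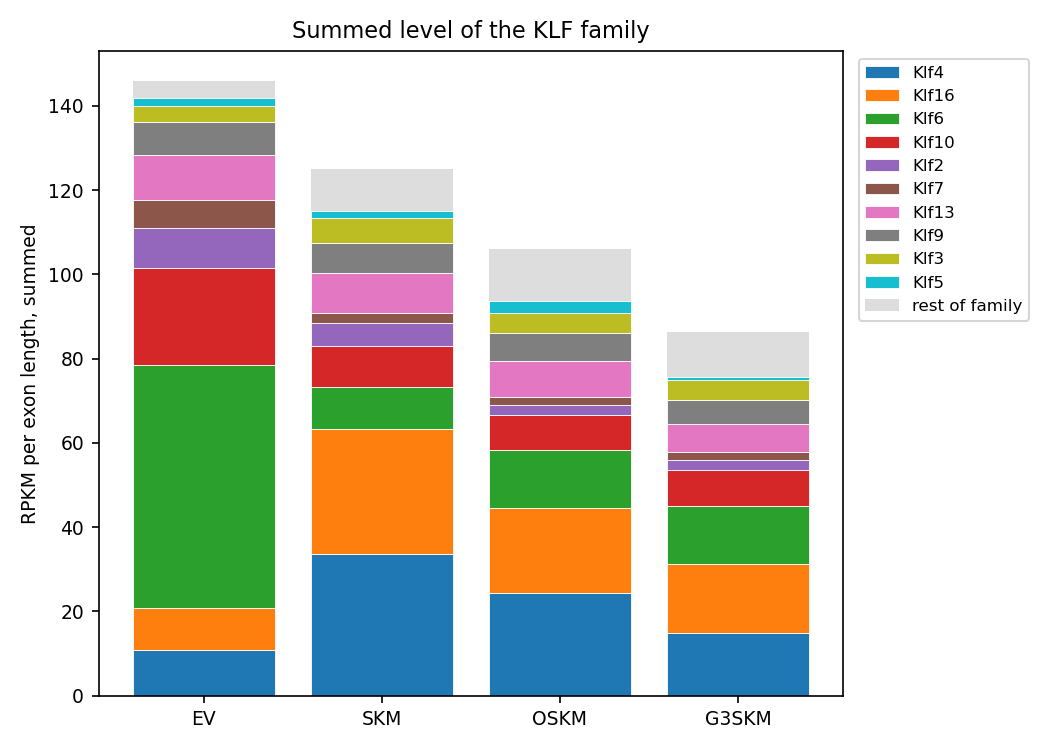
RPKM rescaled to exon length, stacked by gene for the KLF family in the EV, SKM, OSKM and G3SKM groups. The bar of EV is the tallest and is led by Klf6, while Klf4 and Klf16 form the largest parts of the bars of SKM, OSKM and G3SKM.

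Of the 7 other family members, Klf11, a TGF-beta-inducible repressor, alone reached 1 RPKM. Its values were 0.951 RPKM in EV, 1.46 in SKM, 1.49 in OSKM and 1.29 in G3SKM. It was called in no comparison. Klf8, a CtBP-binding repressor that promotes cell cycle progression, was at 0.0222 RPKM (391 reads) in EV, 0.145 (1242 reads) in SKM, 0.191 (2267 reads) in OSKM and 0.157 (2536 reads) in G3SKM. Its ratio to EV was 6.53 in SKM (5.83 to 7.34), 8.62 in OSKM (7.74 to 9.62) and 7.10 in G3SKM (6.38 to 7.92). Like Klf7 it is a long gene that fell under the filter, and on the exon-length scale, where it stood at 0.676 in EV and 4.41, 5.83 and 4.80 in the others, it was called higher in all 3. It was under the filter in EV there, so it could only be called higher. It was 1 of 3 other family members measured, beside 11.9%, 8.89% and 10.2% of all genes called higher. Klf12, a CtBP-binding relative of Klf3 and Klf8, was under the rule on both scales, with ratios to EV of 2.27, 2.75 and 2.93 in SKM, OSKM and G3SKM. Klf1, Klf14, Klf15 and Klf17 were at 0.194 RPKM or less wherever listed.

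The SP factors share the zinc-finger type and the GC-rich target. Of 9 genes, 2 or 3 passed the filter on the deposited scale, depending on the comparison, and none of these was called. The others could not be called there. On the exon-length scale Sp6, a factor of tooth and skin epithelium, was higher in SKM and G3SKM than in EV (ratios of RPKM of 29.9, bounds 18.6 to 51.3, and 30.6, bounds 19.2 to 52.0, from 18 reads in EV). Sp6 was 1 of 5 SP genes measured there, beside 11.9% (SKM) and 10.2% (G3SKM) of all genes called higher. It was at 0.0422 in EV on this scale, under the filter, so it could only be called higher. With the GC trend removed as well, both were under the rule.

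The 14 genes of cofactors and regulators of KLF proteins (CtBP, SIN3, histone deacetylase and ubiquitin ligase genes among them) had 6 to 8 members past the filter, depending on the comparison, and none was called in any. Their median log2 ratio against EV was 0.09 (SKM), 0.16 (OSKM) and 0.04 (G3SKM), beside 0.15, 0.18 and 0.17 for all genes.

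Immediate early genes, which serum and growth factors induce together with Klf4, Klf6 and Klf10, were lower than in EV in 9 of 15 measured genes in SKM, 12 of 15 in OSKM and 12 of 15 in G3SKM, and none was higher. Over all genes, 5.98%, 4.14% and 3.74% were called lower in these comparisons. All 15 reached 1 RPKM in EV, but 11 did in each other group. Genes that passed the filter through EV alone, such as Egr3 and Egr2 (0.907 and 0.557 RPKM in SKM), could only be called lower. In SKM the largest falls were those of Egr3 (log2 -2.07), Egr2 (-1.93) and Ier3 (-1.71). Against EV, the list's median log2 ratio was -1.03 (SKM), -1.59 (OSKM) and -1.51 (G3SKM), beside medians of 0.15, 0.18 and 0.17 over all genes. Klf6 and Klf10 moved in the same direction as this list, and so did Klf2, Klf7, Klf9 and Klf13 in their ratios to EV. Of these, Klf9 and Klf13 passed the rule in no comparison, with Klf9 at a log2 of -0.05 in SKM against EV. Klf16 and Klf3 lay above EV in SKM, OSKM and G3SKM, and Klf5 lay above it in OSKM. The Klf4 value was above EV but holds delivered transcripts, so it cannot show how endogenous Klf4 moved. A link of the members to this list was not tested. Between SKM and the groups with OCT4 or GATA3, Junb alone was called, lower, of 11 measured genes (log2 -1.08 in OSKM and -1.16 in G3SKM), and with the GC trend removed no gene of the list was called there. With that trend removed, the genes lower than EV were 13 in SKM, 14 in OSKM and 13 in G3SKM, beside 5.89%, 6% and 5.49% of all genes. For the Junb calls on the deposited scale, 1.64% (OSKM) and 1.1% (G3SKM) of all genes were called lower than in SKM.

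Early TGF-beta response genes, to which Klf10 is usually counted, were lower than in EV in 6 of 9 measured genes in SKM, 7 of 9 in OSKM and 8 of 9 in G3SKM, and none was higher. All 9 reached 1 RPKM in EV, but 7 did in SKM, 7 in OSKM and 8 in G3SKM. Genes that passed the filter through EV alone, such as Skil in SKM (0.983 RPKM) and Smad7 in OSKM (0.521 RPKM), could only be called lower. Ccn2 (log2 -2.99) and Id1 (-1.49) were among those lower in SKM. The median log2 ratio of this list was -1.33 (SKM), -1.70 (OSKM) and -1.54 (G3SKM), beside 0.15, 0.18 and 0.17 over all genes, of which 5.98%, 4.14% and 3.74% were called lower. With the GC trend removed the SKM count became 8 of 9, and those of OSKM and G3SKM stayed at 7 and 8. Of all genes, 5.89%, 6% and 5.49% were then called lower. On the deposited scale no gene of it was called between SKM and OSKM, SKM and G3SKM, or OSKM and G3SKM. Of 8 glucocorticoid response genes, the setting of Klf9, Dusp1, which is also on the immediate early list, was the single one called of 5 measured: lower than EV in SKM (log2 -1.04), OSKM (-1.57) and G3SKM (-1.43). With the GC trend removed, Sgk1 was also called lower in OSKM.

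Among 10 genes known as targets of KLF4 in epithelium and the cell cycle, Sprr1a and Sprr2a1, proteins of the cornified envelope, were higher in SKM than in EV (log2 3.98 and 1.36) of 8 measured. Of all genes, 8.88% were called higher there. Both genes passed the filter through SKM alone (0.1995 and 0.00406 RPKM in EV), so they could only be called higher. In the comparisons with SKM that follow, 1.64% (OSKM) and 1.1% (G3SKM) of all genes were called lower. Against SKM, Sprr1a (log2 -2.07) and Sprr2a1 (-1.20) were lower in OSKM, and Sprr1a (-1.28) was lower in G3SKM, where Sprr2a1 was called lower as well with the GC trend removed. With that trend removed, 0.687% of all genes were called lower in G3SKM against SKM. Sprr2a1 passed the filter in these comparisons through SKM alone (1.58 RPKM, against 0.123 in OSKM), so against SKM it could only be called lower. Sprr1a was at 0.1995 RPKM in EV, 17.9 in SKM, 3.51 in OSKM and 6.78 in G3SKM, higher than EV by the rule in each. Its order of OSKM and G3SKM was the opposite of that of Klf4. The keratinocyte marker sums given above moved with these genes, and their part was not tested. Among 12 pluripotency genes bound by Klf2, Klf4 and Klf5, 2 were measured in SKM against EV and Sox2, which was delivered, was the single call. In OSKM against SKM Pou5f1, delivered there, was the single one of 3, and it also stood out against G3SKM. Sox2 was lower in G3SKM than in SKM (log2 -1.39). No other gene of these 12 was called on the deposited scale, and on exon length Fbxo15 was also higher in OSKM than in SKM and EV. Of the pluripotent markers, Fgf4 was called higher in OSKM than in SKM (log2 1.08), EV (1.11) and G3SKM (1.05). It reached 1 RPKM in OSKM alone, so it could only be called higher there. The call against EV was lost with the GC trend removed (0.85). Of 4 genes that Klf2 controls in endothelium and lymphocytes, Thbd, encoding thrombomodulin, was lower than in EV in SKM (log2 -1.52; 35.4 RPKM in EV against 11.7), OSKM (11.9 RPKM) and G3SKM (10.9 RPKM), of 2 measured. The other one, S1pr1, was called lower in OSKM with the GC trend removed, beside 6% of all genes. On the deposited scale, 5.98% (SKM), 4.14% (OSKM) and 3.74% (G3SKM) of all genes were called lower than in EV.

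**Figure D4:**
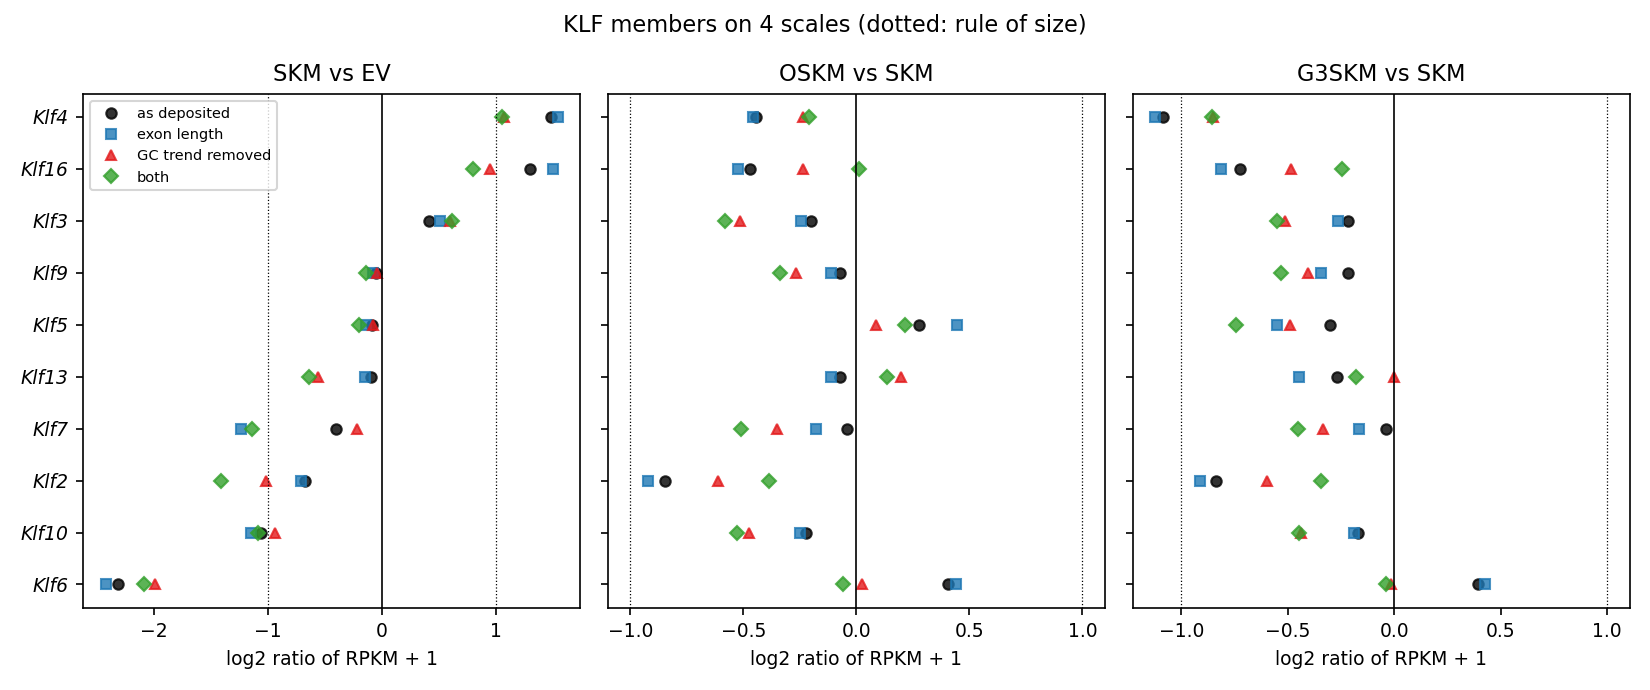
Log2 ratio of RPKM + 1 of each of the 10 members in SKM against EV, OSKM against SKM and G3SKM against SKM, 1 panel each, on the deposited scale, on exon length, with the GC trend removed, and with both; dotted lines mark the rule at 1 and -1. Klf6 and Klf4 are past the rule on all 4 scales in the first panel, no member is past it in the second, and in the last Klf4 is past it until the GC trend is removed.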

How the data were processed

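Per the labels' protocols, TRIzol RNA was treated with DNase and amplified cDNA was made into DNA libraries. TopHat 1.3.0 and mm9 are named, per the submitters' processing notes. No counter, annotation release or way of combining the 2 replicates is named in the sources used here. The deposited values are RPKM of the authors, per the file headers, with a log2 ratio by the authors that was within 0.0017 of the one recomputed. A value of 0.001 was read as 0. The SKM column was identical in all 3 tables (largest difference 0), so columns of different tables were set side by side as far as this shows.

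Symbols, exon lengths and GC came from GENCODE M21 (91.0% of listed genes). RPKM multiplied by gene length fell within 0.05 of a whole read for 74.2% to 76.2% of genes with 1 to 1000 reads, against 10% by chance, which gave each depth. Member reads used a length that gave whole reads in all groups, which for 3 members was that of M21 and for 7 another nearby. Whether introns were counted is not given in the sources used here. Libraries were amplified by PCR, so reads are not independent molecules and intervals are too narrow.

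Named genes were all members, genes past the rule among other KLF and SP genes, up to 3 in each direction of each list, and the 5 profiles most like Klf4. A gene that this rule names is not reported here. Members and lists were chosen with earlier results of these data known, and a gene can pass the filter through its higher group alone. Alternatives were a rule of 2, pseudocounts of 0.1 and 5 RPKM, no filter or one at 5 RPKM, median centring, a trimmed mean (30% of ratios, 5% of levels), exon length, and removal of the GC trend in 20 bins, alone or with exon length. The procedure was tested on simulated data. Software was SciPy 1.17.1, numpy 2.4.6, pandas 2.3.3 and matplotlib 3.10.9 under Python 3.11.15.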

Additional observations from a re-analysis of the deposited data

How the results depend on the processing

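No paired analysis was possible because each group is a single value that combines 2 replicates. Of the 60 log2 ratios of members (10 genes in 6 comparisons), 51 kept their sign under every alternative run and 9 did not, and none of the 12 called values reversed. Members called higher in SKM against EV were 2 as reported, 1 with a pseudocount of 5, 0 with a rule of 2, and 1 with the GC trend removed, alone or on exon length. Members called lower there were 2 as reported, 1 with a pseudocount of 5, 1 with a rule of 2, and 4 on exon length with the GC trend removed. In OSKM against SKM, a pseudocount of 0.1 gave 1 lower (Klf2) in place of 0. In G3SKM against SKM, the lower count of 1 became 2 (Klf2 and Klf4) with a pseudocount of 0.1, and 0 with a pseudocount of 5, a rule of 2, or the GC trend removed, alone or on exon length. In OSKM against EV, the higher count of 1 became 2 (Klf4 and Klf16) with a pseudocount of 0.1 and 0 with a pseudocount of 5, a rule of 2, centring, a trimmed mean, or the GC trend removed, alone or on exon length. The lower count of 3 in OSKM and in G3SKM against EV became 1 with a pseudocount of 5 and 0 with a rule of 2. The lowest recovered read count of any member was 328, for Klf2 in OSKM, unless the shorter length holds for Klf5. With 1 value per group, differences between replicates are not measured.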

Other observations

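In values per gene, which hold delivered and endogenous transcripts together, the delivered genes did not keep one proportion between groups. Klf4 in OSKM was 0.721 of its SKM value and in G3SKM 0.443 of it. Sox2 stood at 0.592 and 0.379 of its SKM value, and Myc at 0.881 and 0.528, in the same order, so each was highest in SKM and lowest in G3SKM among the groups that received it. Myc nevertheless lay below its EV value in each of them, by a ratio of 0.748 (SKM), 0.660 (OSKM) and 0.395 (G3SKM), and was called lower than EV in G3SKM (log2 -1.21). Klf4 exceeded its EV value by 13.0 RPKM (SKM), 7.65 RPKM (OSKM) and 2.29 RPKM (G3SKM). This excess over EV in OSKM was 0.587 of that in SKM for Klf4, and the same measure was 0.591 for Sox2. In G3SKM the proportions were 0.176 for Klf4 and 0.378 for Sox2. Myc had no excess over EV in any of these groups. The measure takes the EV value as the endogenous part in every group, which cannot be checked here. With the GC trend removed, Myc in OSKM was close to its SKM value (log2 -0.02).

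Among 5292 protein-coding genes at 1 RPKM or more in every group, Sf3a2, a subunit of a splicing complex, had the profile over the 4 groups most like that of Klf4, measured by the largest difference after each log2 profile was centred on its own mean. That difference was 0.04, and Sf3a2 was at 7.41 RPKM in EV, 21.8 in SKM, 15.3 in OSKM and 9.69 in G3SKM. Mknk2 and Nt5dc2 followed at 0.16, and Atp5d and Slc25a1 at 0.17. A profile of 4 values, 1 per group, is a description only.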
